A study of Mus musculus with 6 samples.

Results

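The fibrillar collagen genes Col1a1, Col1a2, Col3a1, Col5a1, Col5a2 and Col5a3 were followed through single-nucleus RNA sequencing (snRNAseq) of mouse tibial periosteum before and after fracture. They were chosen by symbol, as the chains of collagen types I, III and V, and were 6 of the 30406 genes listed for every library. All mice were wild-type animals of 12 weeks, C57BL6 in the labels and C57BL/6ScNj in the study's methods, with males and females mixed in each group, and none carried a transgene. Uninjured periosteum was scraped from tibias of 4 mice after the epiphyses had been cut and the marrow flushed, and gave 2 libraries. Injured mice had an open, non-stabilized osteotomy of the tibial shaft under ketamine and medetomidine, with buprenorphine for analgesia and atipamezole for waking. Their activated periosteum was collected together with the hematoma at day 3 (2 libraries), day 5 (1 library) and day 7 (1 library) post-fracture. Injured tibias of 4 to 9 mice were used. Libraries of injured tissue therefore held hematoma that uninjured libraries did not, and tissue of several mice was pooled. The uninjured and day 3 libraries were made in duplicate, and no source says whether a pair came from separate animals, so p-values measure only the spread between these libraries.

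Fibrillar collagens are secreted as triple helices of chains, trimmed outside the cell and packed into the fibrils that give bone, tendon and scar their tensile strength. Type I collagen, built from the Col1a1 and Col1a2 chains, is the main organic component of bone matrix. Type III collagen, made of Col3a1 chains alone, accompanies type I in soft connective tissue and is abundant in early repair tissue. Type V collagen combines Col5a1 and Col5a2 chains, with Col5a3 as an alternative partner in some tissues, and is known for starting type I fibrils and limiting their diameter.

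After filtering and removal of clusters that held muscle markers such as Ttn, Neb and Ckm, 6223 nuclei in 24 clusters remained. They numbered 477 and 929 before injury (the uninjured libraries 1 and 2), 376 and 1179 in the day 3 libraries, 2146 on day 5 and 1116 on day 7. Clusters were named from marker genes, and the 6 collagen genes and all markers were kept out of the features used for clustering. Names end in "-like" because the populations were rebuilt here. Stromal nuclei are those of the clusters like skeletal stem/progenitor cells (SSPC), fibroblasts, injury-induced fibrogenic cells (IIFC), osteoblasts and chondrocytes, 121 and 320 before injury, 116 and 255 in the day 3 libraries, 989 on day 5 and 651 on day 7. Levels are given as CPM, the unique molecular identifiers (UMIs, 1 per captured transcript) of a gene for every 1000000 UMIs of the nuclei concerned. A Col1a1 UMI was held by 4001 of the 4712 barcodes of day 3 library 2, of which 1720 passed the filters, and by 2076 of 2536 at day 5, against 191 of 754 in day 3 library 1, 89 of 655 and 627 of 1446 in the uninjured libraries and 629 of 3448 at day 7. The day 3 libraries thus differed from each other in this measure. Pairs of libraries shared between 0 and 7 barcodes. The summed level of 8 immune markers in stromal nuclei was 17.9 and 22.1 CPM before injury, 157 and 561 in the day 3 libraries, 83.7 on day 5 and 29.5 on day 7, with a UMI of 4 to 8 of the 8 markers, and its part in the results was not tested. That of 6 myogenic markers was 487 and 664 CPM before injury, 457 and 343 in the day 3 libraries, 81.7 on day 5 and 507 on day 7. In immune-like nuclei these myogenic markers summed to 1961 and 1588 CPM before injury, 879 and 369 in the day 3 libraries, 97.2 on day 5 and 942 on day 7. Their part was not tested either.

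The 6 genes lie on 5 chromosomes of GRCm38 (GENCODE release M21). Col3a1 (ENSMUSG00000026043, chromosome 1 from 45311538 to 45349706, plus strand) and Col5a2 (ENSMUSG00000026042, chromosome 1 from 45374321 to 45503282, minus strand) are neighbours that face each other across 24.6 kb with 0 protein-coding genes between them. Col1a1 (ENSMUSG00000001506) spans chromosome 11 from 94936224 to 94953042 on the plus strand, and Col1a2 (ENSMUSG00000029661) chromosome 6 from 4504814 to 4541544 on the plus strand. Col5a1 (ENSMUSG00000026837) spans chromosome 2 from 27886425 to 28039514 on the plus strand, and Col5a3 (ENSMUSG00000004098) chromosome 9 from 20770050 to 20815067 on the minus strand. Intronic reads were counted, and the genes span from 16.8 kb for Col1a1 to 153 kb for Col5a1, of which 39.0% and 5.55% is exonic, so levels were compared between populations and time points for each gene and never between genes.

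The 120 bases before the start of Col3a1, Col5a1 and Col5a3 are shown because Col3a1 and Col5a1 were high in the same populations while Col5a3 had another order, as given below. They are written from 5′ to 3′ on the strand of the gene, from RefSeq on GRCm38.p6, at chr1:45311418-45311537 for Col3a1, chr2:27886305-27886424 for Col5a1 and chr9:20815068-20815187 (minus strand) for Col5a3. Capitals mark matches to a TATA box (TATAAA), a GC box (GGGCGG) or a CCAAT box (CCAAT), each searched on both strands with no match overlapping another.
Col3a1: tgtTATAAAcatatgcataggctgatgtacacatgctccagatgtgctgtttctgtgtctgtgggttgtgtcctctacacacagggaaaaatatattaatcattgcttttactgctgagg
Col5a1: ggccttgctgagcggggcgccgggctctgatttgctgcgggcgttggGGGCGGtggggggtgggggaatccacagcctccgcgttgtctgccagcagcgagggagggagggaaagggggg
Col5a3: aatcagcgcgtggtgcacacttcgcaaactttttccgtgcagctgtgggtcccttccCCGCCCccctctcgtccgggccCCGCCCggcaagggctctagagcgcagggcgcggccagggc
The Col3a1 window held a TATA box from 117 to 112 bases before the start, Col5a1 a GC box from 73 to 68 bases before it, and Col5a3 GC boxes on the other strand from 63 to 58 and from 41 to 36 bases before it. G and C made up 40% of the Col3a1, 72.5% of the Col5a1 and 70% of the Col5a3 window. Among 32851 windows of the same length, 6.34% held a TATA box, 26.5% a GC box and 21.3% a CCAAT box. The matches are descriptions of letters, not of binding. The table held 4 of the 6 genes. Col1a1 and Col5a2 were not in it, and the Col1a2 window is not printed.

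Col1a1 and Col1a2, the chains of type I collagen, were highest in osteoblast-like nuclei. Col1a1 averaged 3791 ± 2221 CPM (SD, n = 4 libraries) there, with 1669 CPM in uninjured library 2, 5337 in day 3 library 2, 6045 at day 5 and 2112 at day 7. Only libraries with at least 20 nuclei of a population entered such a mean. Day 5 and day 3 library 2 were the high libraries. The next Col1a1 levels were 1583 CPM in IIFC-like, 1561 in tendon-like, 1126 in chondrocyte-like, 1112 in fibroblast-like and 661 in SSPC-like nuclei. Col1a2 averaged 6343 ± 3739 CPM (SD, n = 4 libraries) in osteoblast-like nuclei, 2798 in tendon-like, 2607 in IIFC-like and 1183 in SSPC-like nuclei. For both genes the libraries of each population overlapped those of the next in this order, so the order of neighbours is within their spread. Below the stroma came osteoclast-like, pericyte/smooth muscle cell (SMC)-like, immune-like, endothelial-like and Schwann-like nuclei, at means of 471, 364, 343, 292 and 267 CPM of Col1a1. Adipocyte-like nuclei, with 24 nuclei in uninjured library 2 alone, were at 30.9 CPM.

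Col3a1, the chain of type III collagen, had its highest means in IIFC-like nuclei, at 2254 ± 1291 CPM (SD, n = 5 libraries), and in fibroblast-like nuclei, at 2078 ± 1074 CPM (SD, n = 6 libraries). SSPC-like, tendon-like and osteoblast-like nuclei followed at means of 1586, 1582 and 1425 CPM, each overlapping its neighbour. These means cover different libraries, and the order changed within libraries. At day 5 Col3a1 was at 3073 CPM in IIFC-like and 2320 in fibroblast-like nuclei. At day 7 it was at 1430 CPM in IIFC-like, 1676 in fibroblast-like and 2332 in SSPC-like nuclei. The lowest osteoblast-like library (1119 CPM) lay above the highest pericyte/SMC-like library (847 CPM), the next population in the order, whereas the lowest fibroblast-like (611 CPM) and tendon-like (292 CPM) libraries lay below it. Chondrocyte-like nuclei were at 883 CPM at day 5 and 176 at day 7. The remaining populations averaged between 128 CPM in adipocyte-like (1 library) and 192 in immune-like nuclei.

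Col5a1 and Col5a2, the usual chains of type V collagen, had their highest means in IIFC-like nuclei, at 788 ± 351 CPM (SD, n = 5 libraries) and 2824 ± 1140.3 CPM (SD, n = 5 libraries). The means cover different libraries, and the order changed within libraries. Col5a1 was at 232 CPM in IIFC-like and 390 in SSPC-like nuclei of uninjured library 2, and at 764 and 823 at day 7. Col5a2 was at 1496 and 1094 CPM in these populations of uninjured library 2, and at 2595 and 3485 at day 7. At day 5 both genes were higher in IIFC-like than in osteoblast-like nuclei, at 785 against 568 and 4170 against 3069 CPM. The means of the other stromal and tendon-like populations lay inside the range of the IIFC-like libraries for Col5a2, from 1586 CPM in chondrocyte-like to 2253 in osteoblast-like nuclei. For Col5a1 the lowest osteoblast-like library (337 CPM) lay above the highest chondrocyte-like library (296 CPM). Col5a1 was low in immune-like and endothelial-like nuclei, at means of 55.5 and 32.3 CPM, whereas Col5a2 kept 320.2 CPM in endothelial-like nuclei.

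Col5a3, the less common type V chain, had another order. Its highest mean was in Schwann-like nuclei, at 395 and 387 CPM in the uninjured libraries, the only ones with at least 20 Schwann-like nuclei. In the same libraries Col5a3 was at 540 and 82.1 CPM in SSPC-like nuclei. SSPC-like nuclei followed at 317 ± 229 CPM (SD, n = 3 libraries), pericyte/SMC-like nuclei at 303 ± 315 CPM (SD, n = 4 libraries) and IIFC-like nuclei at 224 ± 169 CPM (SD, n = 5 libraries), all with overlapping libraries. Osteoblast-like nuclei were at 29.8, chondrocyte-like nuclei at 10.6 and endothelial-like nuclei at 7.42 CPM. Osteoblast-like nuclei, first in the order for Col1a1 and Col1a2, were thus ninth of the 12 populations for Col5a3.

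**Figure D1:**
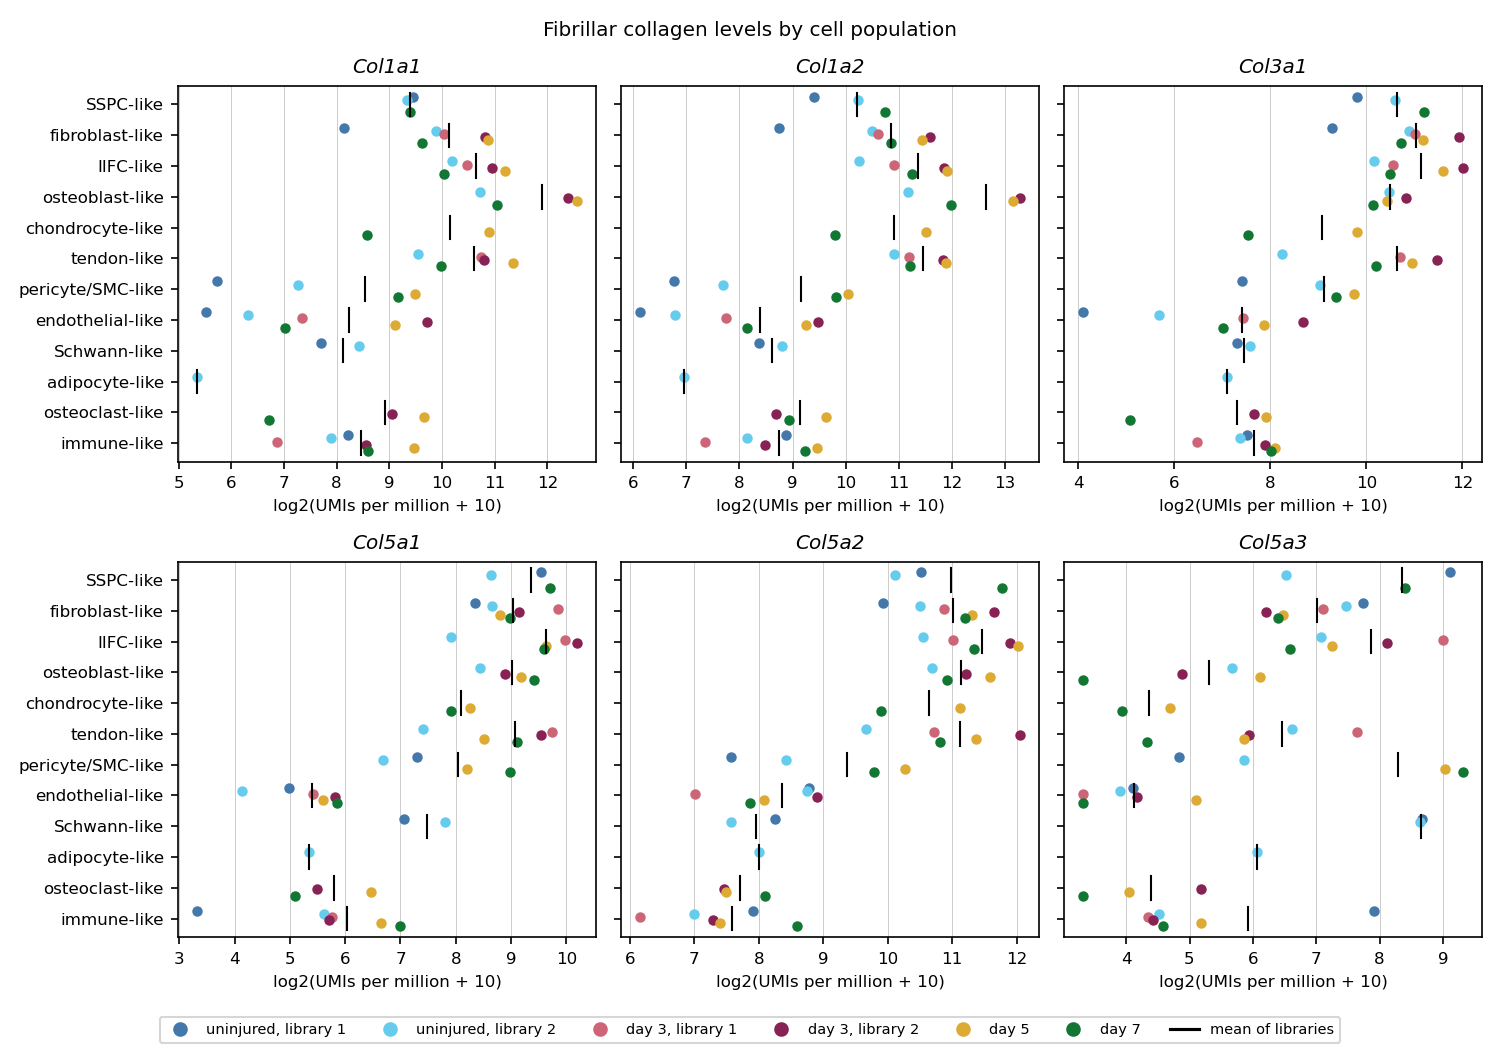
Levels of the 6 genes on a log2 scale, log2(CPM + 10), in 12 populations (rows), 1 point per library with at least 20 nuclei and a bar at the log2 of the mean over libraries. Osteoblast-like nuclei reach the highest Col1a1 and Col1a2 levels, while the highest Col5a3 points are in pericyte/SMC-like, SSPC-like and IIFC-like nuclei and the highest mean is in Schwann-like nuclei (391 CPM).

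Clusters of the same name were compared as a description, first with all libraries pooled and then within each library that held at least 20 nuclei of both clusters. The osteoblast-like nuclei formed a cluster of 174 nuclei led by Ostn, Fat3 and Ibsp and another of 163 nuclei led by Ibsp, Smpd3 and Slc8a3. Pooled, the second had 6842 CPM of Col1a1 and 11795 of Col1a2, against 3436 and 4556 in the first, but 97 of its 163 nuclei came from day 5. Within libraries, Col1a2 was at 13682 CPM in the second and 5276 in the first cluster at day 5, at 4467 and 3512 at day 7 and at 2331 and 2295 in uninjured library 2. The clusters were thus far apart at day 5 and close in the uninjured library. Col3a1 was lower in the second cluster in each of these libraries, at 461 against 2109 CPM at day 5, 810.03 against 1529 at day 7 and 806 against 1552 in uninjured library 2. Col5a3 had no common direction, at 18.1 against 92.5 CPM at day 5, 0 in both at day 7 and 57.5 against 36.4 in uninjured library 2. Ibsp encodes bone sialoprotein, a mineralized matrix protein, and Ostn the secreted peptide osteocrin.

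The fibroblast-like clusters differed as well. In the cluster of 126 nuclei led by Tenm2, Luzp2 and Itgb4, Col1a1 was at 427, Col1a2 at 734, Col3a1 at 944 and Col5a2 at 880.4 CPM. In the cluster of 642 nuclei led by Brinp1, Sfrp1 and Igf1 the same genes were at 1551, 2462, 2581 and 2478 CPM. The smaller cluster held 91 uninjured nuclei, but Col1a1 was also lower in it within libraries, at 84.7 against 532 and 333 against 1192 CPM in the uninjured libraries and 1133 against 1905 at day 5. Col5a3 had no common direction, at 169 against 251, 172 against 166 and 215 against 71.7 CPM. The 122 SSPC-like nuclei, led by C7, Pi16 and Opcml, had a pooled Col5a3 level of 269 CPM, and the 415 chondrocyte-like nuclei, led by Hapln1, Col9a1 and Col2a1, one of 12.0 CPM. A further 327 nuclei of low depth, led by Gm42418, Ccbe1 and Ttn, were left unnamed and outside the stroma, with 2084 CPM of Col1a1 and 248 of Col5a3. Another cluster of 105 nuclei, led by Pax7, Chodl and Lama2, was also left unnamed and outside the stroma.

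**Figure D2:**
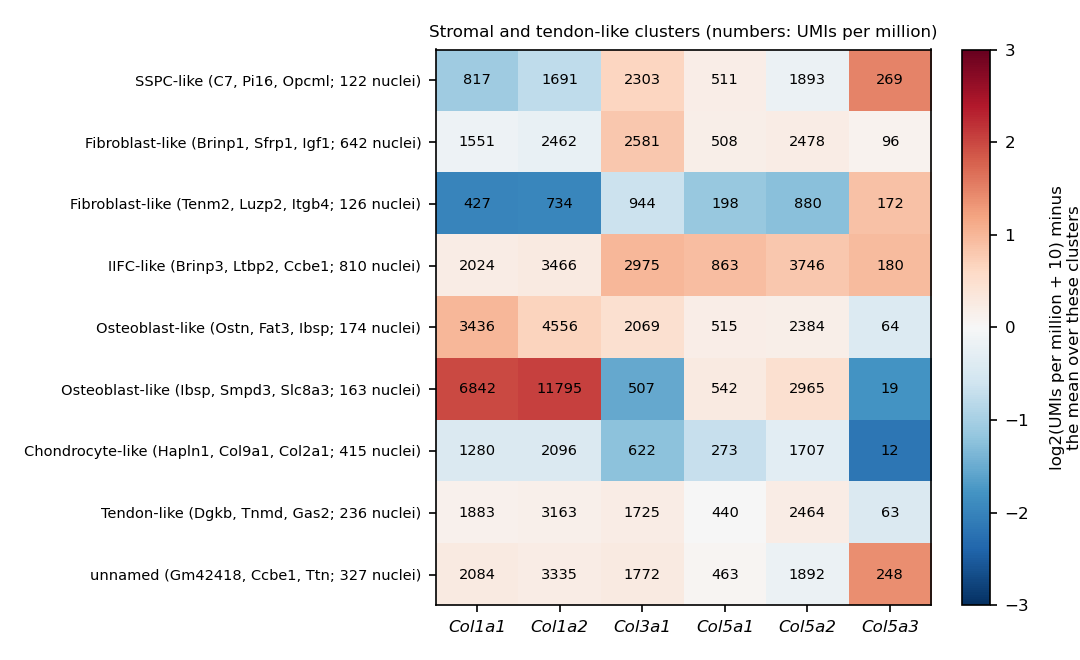
Levels of the 6 genes (columns) in the stromal, tendon-like and unnamed low-depth clusters (rows, with leading genes and nuclei), all libraries pooled. Printed values are CPM and colors show the log2 level minus its mean over these clusters, with Col1a1 and Col1a2 highest in the second osteoblast-like cluster, 97 of whose 163 nuclei are from day 5.

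The level of each gene in stromal nuclei was then followed over time. Col1a1 was at 456 and 956 CPM before injury, 1329 and 2166 in the day 3 libraries, 2545 on day 5 and 775 on day 7. Col1a2 was at 541 and 1463 CPM before injury, 1817 and 3981 in the day 3 libraries, 3977 on day 5 and 1779 on day 7. For both genes, day 3 library 2 and day 5 were the high libraries and both day 3 libraries lay above both uninjured libraries. Col3a1 was at 625 and 1720.5 CPM before injury, 1699 and 3867 in the day 3 libraries, 2344 on day 5 and 1024 on day 7, so day 3 library 1 fell just below uninjured library 2 and the groups overlapped. Col5a2 was at 1049.8 and 1389 CPM before injury, 1958 and 3418 in the day 3 libraries, 3312 on day 5 and 1916 on day 7, with both day 3 libraries above both uninjured ones. Col5a1 was at 389 and 378 CPM before injury, 926 and 852 in the day 3 libraries, 589 on day 5 and 504 on day 7. Its day 3 libraries lay close together, as did its uninjured libraries, and did not overlap. Col5a3 was at 259 and 131 CPM before injury, 331 and 174 in the day 3 libraries, 104 on day 5 and 55.1 on day 7, and the libraries of days 5 and 7 were lower than all others.

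Days 5 and 7 had 1 library each and were not tested. The exact Poisson 95% interval of the Col1a1 level was 2502 to 2588 CPM at day 5 and 731 to 820.5 at day 7, and that of Col3a1 was 2303 to 2385 and 974 to 1076. For Col5a3 it was 95.2 to 113 at day 5 and 44.0 to 68.2 at day 7. These intervals cover counting error only. The stroma of day 7 held 249 chondrocyte-like and 53 osteoblast-like nuclei among 651, and that of day 5 held 151 and 169 among 989, so levels were also read within populations. In fibroblast-like nuclei Col1a1 was at 1864 CPM at day 5 and 776 at day 7. In IIFC-like nuclei it was at 2323 and 1042, in osteoblast-like nuclei at 6045 and 2112, and in chondrocyte-like nuclei at 1879 and 374 CPM. The day 7 library was thus lower for Col1a1 in each of these 4 populations. The same held outside the stroma, at 696 and 374 CPM in immune-like nuclei at days 5 and 7. Endothelial-like nuclei had 542 and 120 CPM, and osteoclast-like nuclei 799 and 95.7 CPM. The lower day 7 level was thus not particular to stromal nuclei, and its cause was not tested. Col5a1 was at 438 and 497 CPM in fibroblast-like, 785 and 764 in IIFC-like, 568 and 671 in osteoblast-like and 296 and 233 in chondrocyte-like nuclei at days 5 and 7, so it was lower at day 7 in 2 of the 4 populations and higher in the other 2.

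**Figure D3:**
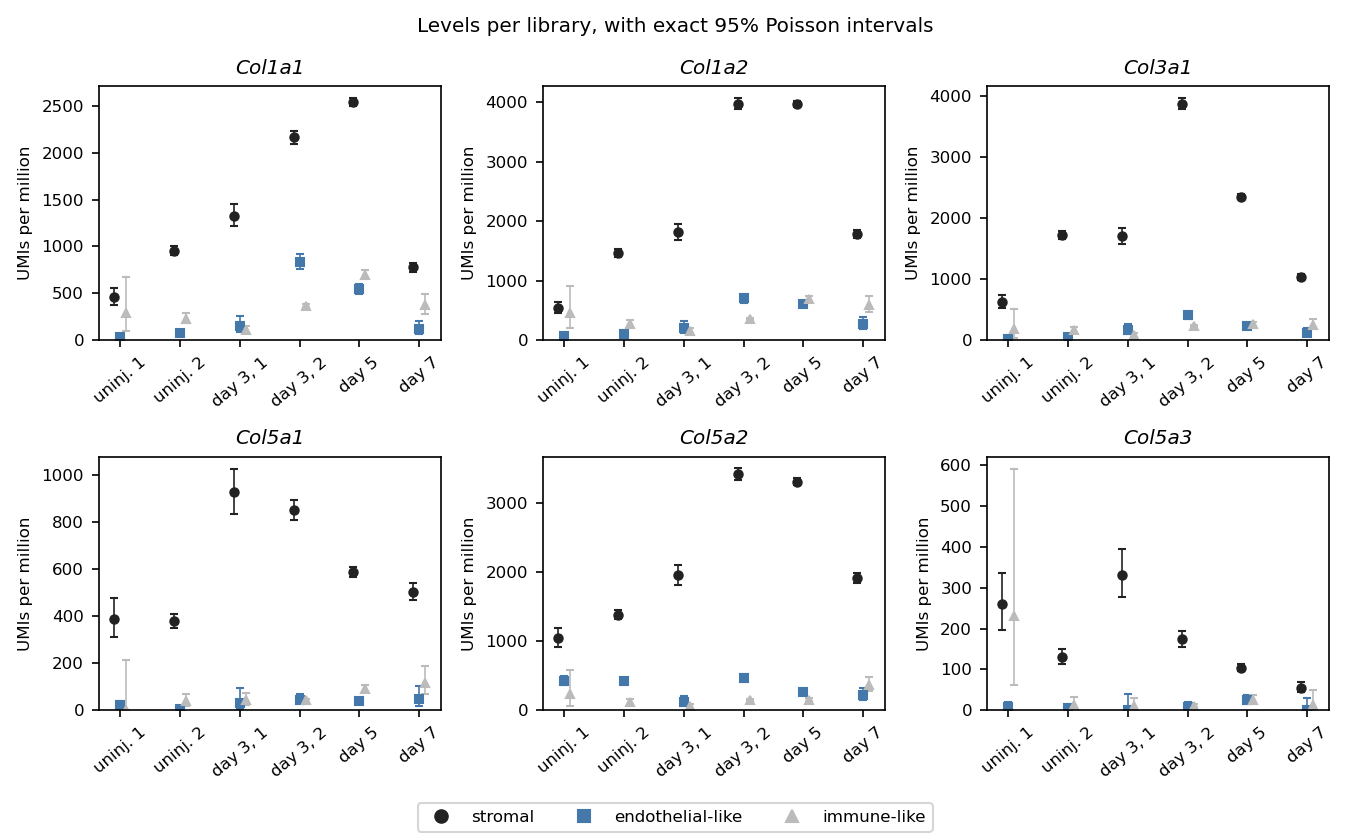
Levels in CPM (vertical axes) per library (horizontal axes) in stromal, endothelial-like and immune-like nuclei, with exact 95% Poisson intervals as bars. Stromal Col1a1 reaches 2545 at day 5 and 775 at day 7, and endothelial-like Col5a2 stays between 119 and 468.

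To ask whether collagen expression differed 3 days after fracture, UMIs were summed per library over stromal nuclei and tested across all 9672 genes that passed a filter on low counts (edgeR's quasi-likelihood test, Benjamini-Hochberg adjusted). Of the 6 genes, all of which passed the filter, 0 were called higher and 0 lower at an adjusted p under 0.05, where 3.49% of all genes were called higher and 5.13% lower. At an unadjusted p under 0.05 there were 4. The log2 fold change of day 3 over uninjured was 1.25 ± 0.44 (SE) for Col1a1 (adjusted p = 0.124), 1.45 ± 0.54 for Col1a2 (0.142) and 1.17 ± 0.54 for Col3a1 (0.245), all by edgeR. For the type V chains it was 1.20 ± 0.35 for Col5a1 (edgeR adjusted p = 0.0644), 1.08 ± 0.41 for Col5a2 (0.150) and 0.42 ± 0.48 for Col5a3 (0.693). The median over the 6 genes was 1.18, beside 0.04 over all genes tested. The mix of stromal nuclei shifted as well. IIFC-like nuclei were 11 of 121 and 25 of 320 before injury, and 64 of 116 and 120 of 255 at day 3. The part of this shift in the stromal fold changes was not tested. Both day 3 libraries lay above both uninjured libraries for Col1a1, Col1a2, Col5a1 and Col5a2, 4 of the 6, where 27.9% of all genes did so.

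The call depended on the tool and on single libraries. DESeq2 called 4 of the 6 higher, Col5a1 (1.21, DESeq2 adjusted p = 0.00447), Col1a1 (0.0203), Col1a2 (0.0228) and Col5a2 (0.0264), and edgeR without the filter on low counts called Col1a1, Col1a2 and Col5a1. Without day 3 library 1, edgeR called Col1a2 (1.82, adjusted p = 0.0121) and Col3a1 (1.55, 0.0409), and without day 3 library 2 it called Col5a1 (1.42, 0.0444). Headers name Cell Ranger 7.1.0 for uninjured library 2 and both day 3 libraries and 6.0.0 for the others. Within 7.1.0, that is without uninjured library 1, 0 of 6 were called, the Col5a1 value was 1.19 and the Col1a1 value 0.78 (edgeR adjusted p = 0.135 and 0.495). An exact permutation test of 2 against 2 libraries cannot go below p = 0.333, which was the two-sided value for Col1a1.

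The same question was asked inside the SSPC-like and fibroblast-like nuclei alone, which make up much of the uninjured stroma. Nuclei of the IIFC-like, osteoblast-like and chondrocyte-like clusters thus did not enter. Postn, a marker used to name IIFC-like nuclei, was itself called higher at day 3 in this subset (4.38 ± 0.46, edgeR adjusted p = 0.00280). The part of a change of state within these nuclei was not tested. Col1a1 was at 355 and 851 CPM before injury, 1028 and 1777 in the day 3 libraries, 1834 on day 5 and 764 on day 7. Col3a1 was at 665 and 1793 CPM before injury, 2008 and 4112 in the day 3 libraries, 2400.2 on day 5 and 1739.8 on day 7. The mix of these nuclei shifted, with SSPC-like nuclei 77 of 315 before injury and 8 of 147 at day 3. The cluster led by Tenm2, Luzp2 and Itgb4 gave 35 and 56 nuclei before injury and 2 and 7 at day 3. Within the cluster led by Brinp1, Sfrp1 and Igf1, the groups overlapped for Col1a1, Col1a2 and Col3a1 but not for Col5a1 and Col5a2. Its Col1a1 level was 532 and 1192 CPM before injury and 1062 and 1803 at day 3. In the SSPC-like and fibroblast-like nuclei together, both day 3 libraries lay above both uninjured ones for every gene but Col5a3. That was 5 of 6, where 25.8% of all 7047 genes tested did so. The log2 fold change was 1.15 ± 0.48 for Col1a1, 1.29 ± 0.55 for Col1a2, 1.24 ± 0.54 for Col3a1, 0.87 ± 0.40 for Col5a1, 1.00 ± 0.42 for Col5a2 and -0.78 ± 0.46 for Col5a3. By edgeR's quasi-likelihood test 0 of 6 were called, with adjusted p from 0.239 to 0.445, where 2.31% of genes were called higher and 3.77% lower, and 4 had an unadjusted p under 0.05. DESeq2 also called 0. Without uninjured library 2, Col1a1 (adjusted p = 0.0418) and Col1a2 (0.0267) were called by edgeR. Without uninjured library 1 none of the 6 had an unadjusted p under 0.05, and the Col1a1 value was 0.64.

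**Figure D4:**
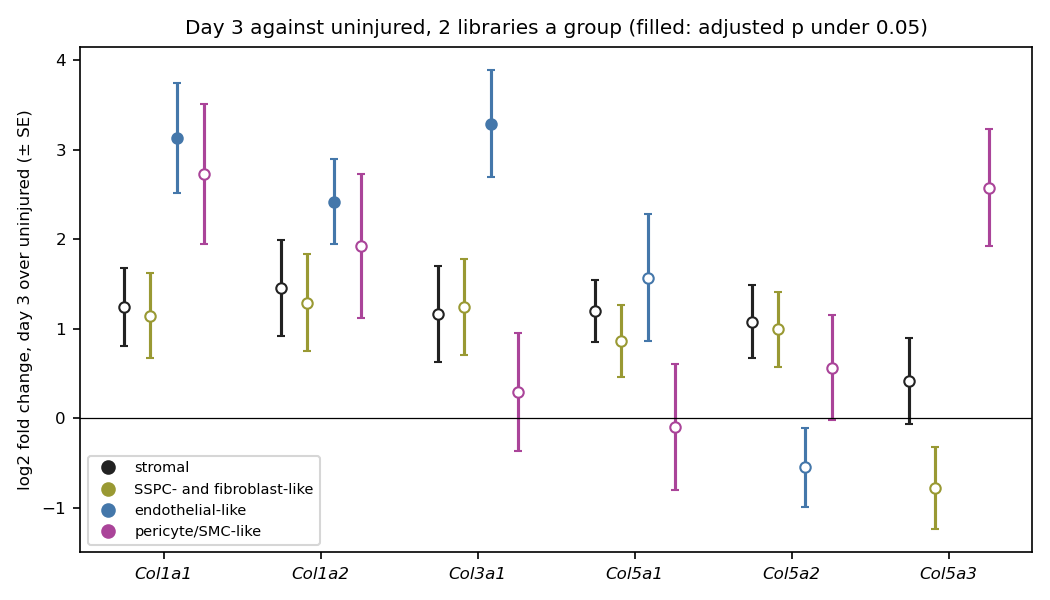
Log2 fold change of day 3 over uninjured (vertical axis, ± SE, edgeR, 2 libraries a group) for each gene in stromal, SSPC- and fibroblast-like, endothelial-like and pericyte/SMC-like nuclei. Filled points passed an adjusted p under 0.05, which only Col1a1, Col1a2 and Col3a1 in endothelial-like nuclei did, and Col5a3 was not tested in endothelial-like nuclei.

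Collagen UMIs outside the stroma were examined in endothelial-like and pericyte/SMC-like nuclei. The endothelial-like nuclei numbered 203 and 260 before injury and 39 and 65 in the day 3 libraries. In endothelial-like nuclei Col1a1 was at 36.1 and 69.2 CPM before injury, 151 and 836 in the day 3 libraries, 542 on day 5 and 119.6 on day 7. Col3a1 was at 7.22 and 41.7 CPM before injury, 162 and 400.1 in the day 3 libraries, 224 on day 5 and 119.6 on day 7. Both genes were highest in day 3 library 2 and next highest at day 5, the 2 libraries in which most barcodes held Col1a1. Of the 5 genes tested there (Col5a3 did not pass the filter), edgeR's quasi-likelihood test called 3 higher at day 3, where 1.65% of all 6828 genes were called higher and 1.95% lower. They were Col3a1 (3.29 ± 0.60, adjusted p = 0.0262), Col1a2 (2.42 ± 0.48, 0.0331) and Col1a1 (3.13 ± 0.62, 0.0336). The Col3a1 level of 7.22 CPM in uninjured library 1 is of 415421 UMIs, so its fold change starts from few UMIs there. Col5a1 had a value of 1.57 ± 0.71 (0.305) and Col5a2 of -0.55 ± 0.44 (0.606). Both day 3 libraries lay above both uninjured ones for 4 of the 5, where 26.7% of genes did so.

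The calls were lost under several alternatives. Without nuclei marked as doublets 0 of the 4 genes then tested were called, and the Col1a1 value was 2.07 (edgeR adjusted p = 0.0946). Without day 3 library 2, 0 of 5 were called (Col3a1 2.57, adjusted p = 0.240 by edgeR), without day 3 library 1 only Col1a1 was called (adjusted p = 0.0413) and without uninjured library 1 only Col3a1 (adjusted p = 0.0497). Immune-like nuclei, which should lack fibrillar collagen, held Col1a1 at 288 and 227 CPM before injury, 106 and 365 in the day 3 libraries, 696 on day 5 and 374 on day 7. The endothelial-like Col1a1 level lay above the immune-like level in both day 3 libraries and below it in the other 4. Immune markers in the endothelial-like nuclei summed to 4.81 and 137 CPM before injury, and to 162 and 394 at day 3. The part of RNA from other nuclei in these levels was not tested.

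Col5a2 in endothelial-like nuclei was at 428 and 421 CPM before injury, 119 and 468 in the day 3 libraries, 261 on day 5 and 223 on day 7. Its day 3 libraries lay on either side of the uninjured ones, and its level was above that of immune-like nuclei in 5 of the 6 libraries, the exception being day 7, where it was 223 against 374 CPM. Col5a3 had 0 UMIs in the endothelial-like nuclei of day 3 library 1 and of day 7, which allows up to 32.5 and 23.9 CPM (3 UMIs), and at most 24.3 CPM elsewhere. The 28 immune-like nuclei of uninjured library 1 held endothelial markers at 1615 CPM, more than their 577 CPM of immune markers, and their collagen levels are therefore no clean background.

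Whether the day 3 change differed between stromal and endothelial-like nuclei was tested directly, with library as a block. The Col3a1 change of endothelial-like nuclei starts from few UMIs in uninjured library 1. The stromal change minus the endothelial-like change was -2.19 ± 0.44 on the log2 scale for Col3a1 (edgeR adjusted p = 0.00351) and 1.84 ± 0.41 for Col5a2 (0.00934), 1 gene called lower and 1 higher of 6, where 2.39% and 1.83% of 8623 genes were. Col1a1 had -1.63 ± 0.49 (0.0641), and Col1a2, Col5a1 and Col5a3 had adjusted p from 0.511 to 0.990. Without marked doublets the Col3a1 difference was -0.91 (adjusted p = 0.528 by edgeR), and without day 3 library 2 its adjusted p was 0.0623. The Col5a2 difference passed under 10 of 11 alternatives, the exception being the test without day 3 library 1 (1.38, edgeR adjusted p = 0.194).

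Pericytes and smooth muscle cells wrap blood vessels, and pericyte/SMC-like nuclei were followed as a further population outside the stroma. They numbered 4 and 9 in the day 3 libraries, so their day 3 values rest on few UMIs. Col1a1 was at 43.2 and 144 CPM before injury, 115 and 1029 in the day 3 libraries, 709 on day 5 and 561 on day 7. Col5a3 was at 18.5 and 47.9 CPM before injury, 346 and 221 in the day 3 libraries, 516 on day 5 and 628 on day 7, above both uninjured libraries at every later time point. It was the only 1 of the 6 genes with both day 3 libraries above both uninjured ones, where 22.2% of 2699 genes were. By edgeR 0 of 6 were called (0.371% of genes were called higher and 0.0741% lower), 3 had an unadjusted p under 0.05, and DESeq2 called 0 of the 4 for which it gave an adjusted p. Col1a1 had 2.73 ± 0.78 (edgeR adjusted p = 0.163) and Col5a3 2.58 ± 0.66 (0.122). Without day 3 library 1, the library with 4 of these nuclei, Col1a1 (adjusted p = 6.69e-04) and Col1a2 (0.00657) were called. Myogenic markers in those 4 nuclei summed to 4838 CPM, against 121 to 491 in the other libraries, and their part was not tested.

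The share of stromal nuclei with at least 1 UMI of a gene was computed after each nucleus had been thinned to 500 UMIs, because median depth ran from 1534 UMIs in uninjured library 1 to 5236 in day 3 library 2. Col1a1 was found in 21.5% and 36.4% of nuclei before injury, 41.4% and 63.1% in the day 3 libraries, 64.7% on day 5 and 28.2% on day 7. Its exact binomial 95% interval was 31.1% to 41.9% in uninjured library 2 and 61.6% to 67.7% at day 5. Before thinning, the day 5 share was 98.1%. The background was not small, since a Col1a1 UMI was found in 10.7% and 17.5% of immune-like nuclei before injury, 5.33% and 25.3% in the day 3 libraries, 30.2% on day 5 and 17.3% on day 7. Median depths of those nuclei ran from 584.5 to 3862 UMIs. Stromal shares of Col1a1 exceeded the immune-like shares in all 6 libraries.

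Col5a3 was found in 15.7% and 6.58% of nuclei before injury, 12.9% and 9.41% in the day 3 libraries, 4.35% on day 5 and 2.77% on day 7. In immune-like nuclei its share was at most 0.911% in every library but uninjured library 1, where it was 10.7% of 28 nuclei. Col5a1 was found in 14.9% and 16.6% of nuclei before injury, 27.6% and 30.6% in the day 3 libraries, 21.1% on day 5 and 22.3% on day 7, with immune-like shares from 0 to 6.47%. A UMI of at least 3 of the 6 genes was found in 16.5% and 29.2% of stromal nuclei before injury, 41.4% and 72.2% in the day 3 libraries, 67.1% on day 5 and 30% on day 7. In immune-like nuclei the same share ran from 1.33% to 8.77%. The lowest stromal share of nuclei with at least 3 of the genes lay above the highest immune-like share.

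Ratios between chains were compared next, since a ratio of 2 genes in the same nuclei does not depend on the depth of the library. They are ratios of UMIs, which also carry gene length, and were read only between populations and libraries. Col1a1 over Col1a2, the chains of type I collagen, was 0.843 and 0.653 in uninjured stromal nuclei, 0.732 and 0.544 in the day 3 libraries, 0.640 on day 5 and 0.436 on day 7. The day 7 ratio was the lowest of the 6 and its exact 95% interval, 0.407 to 0.467, lay below those of the other libraries, where the nearest was 0.523 to 0.566 in day 3 library 2. At day 7 it was 0.421 in fibroblast-like, 0.431 in IIFC-like, 0.421 in chondrocyte-like and 0.521 in osteoblast-like nuclei. Within fibroblast-like nuclei the other 5 libraries lay between 0.582 and 0.678. In immune-like nuclei the ratio was 0.833 in uninjured library 2, 0.689 and 1.05 in the day 3 libraries, 1.00 on day 5 and 0.628 on day 7, where it was lowest too. It lay above the stromal ratio of the same library in all of these but day 3 library 1, and its interval was apart from the stromal one in day 3 library 2 and on day 5.

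Col3a1 over Col1a1 separated fibroblast-like from osteoblast-like nuclei. In fibroblast-like nuclei it was 2.25 and 2.03 before injury, 1.97 and 2.19 in the day 3 libraries, 1.24 on day 5 and 2.16 on day 7. In osteoblast-like nuclei it was 0.840 in uninjured library 2, 0.340 in day 3 library 2, 0.226 at day 5 and 0.530 at day 7. The ratio was higher in fibroblast-like nuclei in each of the 4 libraries with at least 20 osteoblast-like nuclei, with day 5 low in both populations. Chondrocyte-like nuclei had 0.470 at day 5 and 0.472 at day 7.

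Col5a3 over Col5a1 was 0.667 and 0.346 in uninjured stromal nuclei, 0.357 and 0.204 in the day 3 libraries, 0.176 on day 5 and 0.109 on day 7. The later libraries lay below both uninjured libraries except day 3 library 1. In pericyte/SMC-like nuclei the ratio was 1.81 at day 5 (exact 95% interval 1.37 to 2.41) and 1.27 at day 7 (0.702 to 2.33), above the stromal interval of the same library in both. Col5a1 over Col5a2 was 0.370 and 0.273 in uninjured stromal nuclei, 0.473 and 0.249 in the day 3 libraries, 0.178 on day 5 and 0.263 on day 7, with the day 3 libraries on either side of the uninjured ones.

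**Figure D5:**
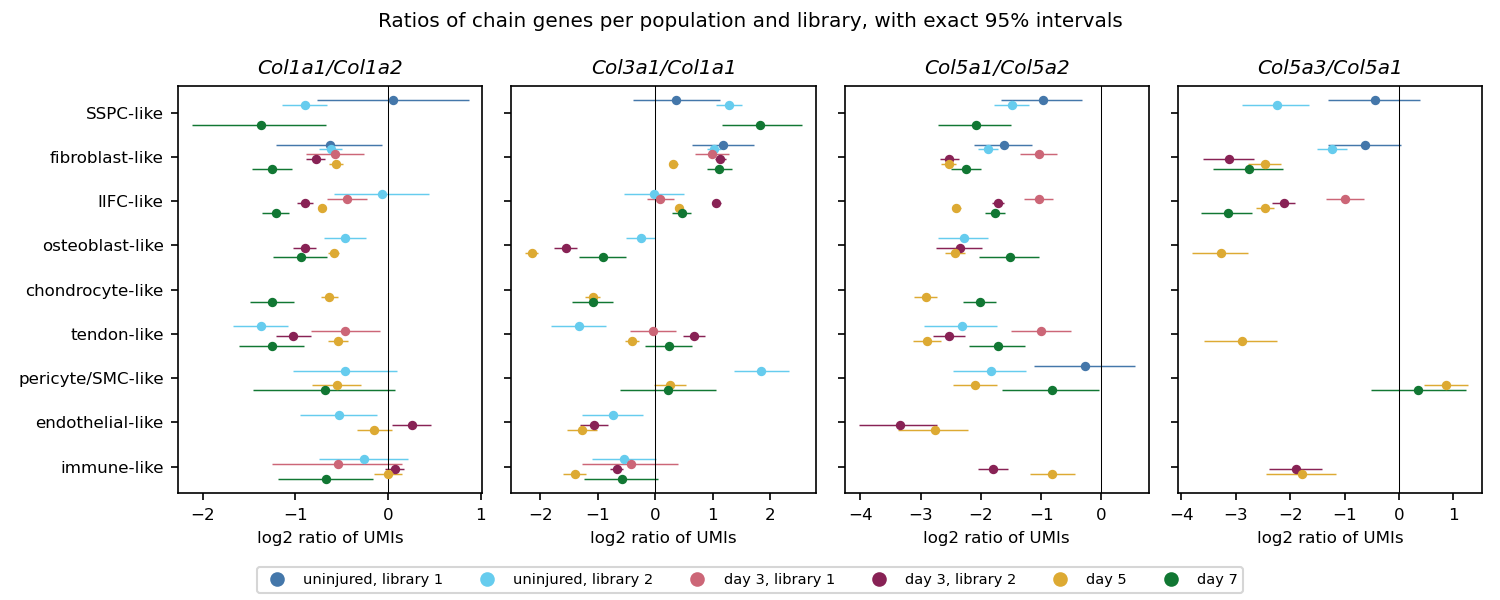
Log2 ratio of UMIs (horizontal axes) of Col1a1 to Col1a2, Col3a1 to Col1a1, Col5a1 to Col5a2 and Col5a3 to Col5a1 in 9 populations (rows), 1 point per library with at least 20 nuclei and 20 UMIs of each gene, with exact 95% intervals as bars. Col3a1 to Col1a1 lies to the right of 0 in every fibroblast-like library and to the left in every osteoblast-like library.

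The genes whose levels were most like those of each collagen gene were found from Pearson's r of log2(CPM + 10) over 47 sums of at least 20 nuclei, each a population in a library, among 7413 genes with a mean of at least 20 CPM. The sums share libraries, depth and populations, so r is a description. Among the 6 genes themselves, r was 0.96 between Col1a1 and Col1a2, the chains of the same molecule, 0.84 between Col5a1 and Col5a2, and 0.84 between the chromosomal neighbours Col3a1 and Col5a2. Pairs that share neither molecule nor chromosome were as high, at 0.87 between Col3a1 and Col5a1 and 0.84 between Col3a1 and both Col1a1 and Col1a2. Col5a3 stood apart, with r between 0.26 with Col1a2 and 0.51 with Col5a1.

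The nearest other genes were Cthrc1 (0.82), Srpx2 (0.80) and Creb3l1 (0.80) for Col1a1 and Srpx2 (0.87), Cdh11 (0.84) and Ror2 (0.84) for Col1a2. Cthrc1 also served as an IIFC marker when the clusters were named. Cthrc1 encodes a secreted protein with a collagen repeat, Creb3l1 a transcription factor of the endoplasmic reticulum that acts on type I collagen genes in osteoblasts, and Cdh11 the cadherin of mesenchymal cells. For Col3a1 they were Sh3rf3 (0.87), Antxr1 (0.86) and Srpx2 (0.84), and Antxr1 encodes a membrane receptor that binds collagen. For Col5a1 they were Col6a2 (0.88), Sh3rf3 (0.87) and Epb41l3 (0.86), of which Col6a2 is a chain of type VI collagen. For Col5a2 they were Srpx2 (0.90), Uggt2 (0.89) and Sh3rf3 (0.87), of which Uggt2 is a glycoprotein folding enzyme. Srpx2 was thus among the first 3 for Col1a1, Col1a2, Col3a1 and Col5a2, and Sh3rf3 for Col3a1, Col5a1 and Col5a2. The 3 nearest to Col5a3 were none of these, Galnt16 (0.76), Lama2 (0.70) and Plce1 (0.68), with Lama2 the laminin chain of muscle and Schwann cell basement membranes.

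The enzymes and factors that fold, trim and cross-link fibrillar collagen were followed as a list of 30 genes, 29 of which were tested in stromal nuclei. At day 3, 5 of the 29 were called higher and 1 lower by edgeR's quasi-likelihood test, beside 3.49% higher and 5.13% lower of all genes tested, and the median log2 fold change was 0.75 against 0.04 over all genes. The 4 with the largest increase were P4ha3, a prolyl hydroxylase subunit (2.57 ± 0.66, adjusted p = 0.0430), Creb3l1 (2.34 ± 0.42, 0.0122), Loxl3, a lysyl oxidase that cross-links fibrils (2.27 ± 0.35, 0.00698), and Plod2, a lysyl hydroxylase (1.76 ± 0.34, 0.0156). Pcolce2, an enhancer of procollagen C-proteinase, was the gene called lower (-3.24 ± 0.47, adjusted p = 0.00584 by edgeR). In SSPC-like and fibroblast-like nuclei alone, 4 of the 26 tested were called higher and 1 lower, beside 2.31% and 3.77% of all genes. Creb3l1 was not called there (1.57 ± 0.55, edgeR adjusted p = 0.155).

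Of 13 partners of the fibril, all tested in stromal nuclei, 1 was called higher and 2 lower, beside 3.49% higher and 5.13% lower of all genes. Postn, the matrix protein periostin that also served as an IIFC marker, had 3.48 ± 0.37 (edgeR adjusted p = 0.00175), whereas the small proteoglycan Dcn had -2.43 ± 0.54 (0.0257) and Tnxb, a tenascin of collagen-rich tissue, -4.55 ± 0.41 (0.00122). Tnxb was also among the 10 leading genes of the SSPC-like cluster, which gave 77 nuclei before injury and 8 at day 3. Of 12 collagen receptors and turnover genes, 0 were called higher and 2 lower beside the same shares, the integrin subunits Itga1 (-1.61 ± 0.40, edgeR adjusted p = 0.0391) and Itga2 (-3.16 ± 0.73, 0.0291). The median was 0.50 over the partners and -0.04 over the receptors. In SSPC-like and fibroblast-like nuclei alone, 1 of the 11 partners tested was called higher and 1 lower. They were Postn (4.38 ± 0.46, edgeR adjusted p = 0.00280) and Tnxb (-3.51 ± 0.43, 0.00361). Of the 10 receptor and turnover genes tested there, 0 were called, beside 2.31% higher and 3.77% lower of all genes. Dcn (edgeR adjusted p = 0.0962), Itga1 (0.246) and Itga2 (0.131) were not called in these nuclei.

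The other fibrillar collagen genes, those of cartilage and the minor types, gave 3 calls of 5 in the test on stromal nuclei, all higher. Of all genes tested there, 3.49% were called higher and 5.13% lower. Col24a1 had 2.38 ± 0.44 (edgeR adjusted p = 0.0137), Col27a1 2.25 ± 0.34 (0.00667) and Col11a1, the type XI chain closely related to Col5a1, 1.34 ± 0.34 (0.0404). Col2a1, the chain of the main cartilage collagen, had 1.62 ± 1.35 (0.561) and Col11a2 0.64 ± 0.77 (0.706), and neither was called. The stroma of the day 3 libraries held 3 and 5 chondrocyte-like nuclei. In SSPC-like and fibroblast-like nuclei alone, 2 of the 3 tested were called higher, beside 2.31% of all genes. Col11a1 was not called there (1.80 ± 0.52, edgeR adjusted p = 0.0837).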

How the data were processed

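The deposited files hold raw UMI counts per gene and barcode. The authors made them with Cell Ranger Count on mm10 with exonic and intronic sequence, version 6.0.0 for uninjured library 1, day 5 and day 7 and version 7.1.0 for the rest, per the file headers. The 3 annotations list 31055 to 32287 genes, 30406 of them in common. Libraries held 655 to 4712 barcodes and 1499281 to 29796296 UMIs.

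A barcode was kept if it had 200 to 5000 genes and less than 2% of its UMIs from mitochondrial and less than 1.5% from ribosomal protein genes. Clusters of muscle nuclei were removed per library (scanpy 1.11.5). Libraries were integrated and clustered with Seurat 5.3.0 (20 components, resolution 1.3, 2000 features). Clusters were named from markers listed for the study's populations. The scoring was set after the data were seen, and the populations may differ from the study's. Scrublet's automatic threshold marked almost no nuclei, so the highest 6% of scores were taken as doublets, which were kept and left out in an alternative.

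UMIs were summed per library and population and compared with edgeR 4.0.16 (TMM, quasi-likelihood test, filter on low counts, Benjamini-Hochberg over all genes tested) in R 4.3.3. The difference between populations was an interaction term with library as a block. DESeq2 1.42.0 was an alternative. The code was tested on simulated data. Days 5 and 7 had 1 library each and got exact Poisson, binomial or ratio intervals (95%, scipy 1.17.1), which cover counting error only. A level of 0 was given the limit of 3 UMIs.

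All 6 genes, up to 4 called processing genes in each direction, the other fibrillar collagens and the 3 genes of highest r per member are named. Called partner and receptor genes, and clusters, were named after their values were seen. The genes and lists were chosen with earlier results of these data known. The replicate numbers follow accession order.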

Additional observations from a re-analysis of the deposited data

Results flagged for a closer look

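The day 3 change differed between stromal and endothelial-like nuclei for 2 of the 6 genes by a test of the difference itself. For Col3a1 the endothelial-like change starts from few UMIs in uninjured library 1. The stromal minus endothelial-like difference was -2.19 ± 0.44 (SE) on the log2 scale for Col3a1 (edgeR adjusted p = 0.00351) and 1.84 ± 0.41 for Col5a2 (0.00934). The Col3a1 call was lost without marked doublets (-0.91, edgeR adjusted p = 0.528), without day 3 library 2 (-2.15, 0.0623) and with marker genes kept as features (-1.34, 0.130), and the Col5a2 call without day 3 library 1 (1.38, 0.194).

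The muscle nuclei removed before the comparisons, 167 and 253 before injury, 377 and 541 in the day 3 libraries, 277 on day 5 and 235 on day 7, also held collagen UMIs, at levels above both uninjured libraries in day 3 library 2 and at later times for the genes given here, but not in day 3 library 1 for 4 of 5. Col1a1 was at 315 CPM in day 3 library 2 and 501 at day 5, against 21.8 and 52.0 in the uninjured libraries. Col1a2 was at 359.7 CPM in day 3 library 2, 568 at day 5 and 215 at day 7, against 39.96 and 76.6. Col3a1 was at 234, 222 and 117 CPM in the same 3 libraries, against 3.63 and 53.0. Col5a1 was at 64.3, 71.4 and 64.8 CPM, against 9.08 and 15.7. Col5a2 was at 219, 222 and 196 CPM, against 18.2 and 28.0. In day 3 library 1 the same genes stood at 25.2, 51.0, 21.8, 20.5 and 27.8 CPM, of which only Col5a1 was above both uninjured libraries.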

How the results depend on the processing

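Uninjured and day 3 libraries were not paired, as the labels give no pairing or replicate numbers. Only the test of the difference between populations used library as a block. Of the log2 fold changes of single genes under the alternatives, 277 kept their direction and side of the threshold, 19 passed it only under the alternative, 18 lost it and 18 changed sign. Of the counts, shares, levels and ratios, 123 stayed within their error or within 1.5 times, and 40 did not. The number of members called in stromal nuclei, 0, was 4 with DESeq2, 3 without the filter on low counts and 0 to 2 with 1 library left out. The 3 calls in endothelial-like nuclei became 1 with DESeq2, 1 with member and marker genes kept as features, 0 without doublets and 0 to 3 with 1 library left out. The 0 calls in pericyte/SMC-like nuclei became 1 without integration, 1 without doublets and 0 to 2 with 1 library left out, and the 0 in SSPC- and fibroblast-like nuclei 0 to 2. Of the differences between populations, the 1 higher call ranged from 0 to 1 with 1 library left out, and the 1 lower call was 0 with marker genes kept, 2 without the filter, 0 without doublets and 0 to 2 with 1 library left out.

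Signs changed in SSPC- and fibroblast-like nuclei for Col5a3 without integration (0.40), and in stromal nuclei for Col5a3 with 1 library left out (-0.28 to 0.96, with -0.06 without uninjured library 2). In pericyte/SMC-like nuclei, values with 1 library left out ran from -0.49 to 3.63 for Col1a1, -7.71 to 2.42 for Col1a2, -0.40 to 1.24 for Col3a1 (with -0.29 without day 3 library 2), -0.44 to 0.26 for Col5a1 (with 0.22) and -0.90 to 0.91 for Col5a2, and Col3a1 was -0.12 without the filter. The difference between populations changed sign for Col1a2 without doublets (0.53) and with marker genes kept (0.21), for Col5a1 without doublets (0.16) and with 1 library left out (-1.31 to 0.22), and for Col5a3 with 1 library left out (-0.43 to 5.86, with -0.23) and at looser quality limits (-0.71). The causes were not tested.

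Shares of stromal nuclei at day 5 rose with depth, to 82.8, 91.7, 74.3, 40, 84.2 and 8.98% at 1000 UMIs and 98.1, 98.7, 89.2, 75.7, 94.7 and 21.3% without thinning, for Col1a1, Col1a2, Col3a1, Col5a1, Col5a2 and Col5a3. At looser quality limits the Col5a1 share was 24.0%. Taken from shares in place of UMIs, the mean log2 ratio in fibroblast-like nuclei was -0.36 for Col1a1 over Col1a2, -1.37 for Col5a1 over Col5a2 and 0.44 for Col3a1 over Col1a1, and the last was 0.62 without integration. Of 18 pairs of a member and a like gene, 10 were kept with a pseudocount of 1 CPM and 5 with sums of at least 50 nuclei. Counting the unnamed low-depth cluster as stromal, an alternative chosen after seeing the data, left 0 members called. The nuclei kept and their clusters also depended slightly on the linear-algebra build used, which was fixed here, and the results were not recomputed under another build.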
